A study of Caenorhabditis elegans with 36 samples.

Results

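Innate immune effector genes of Caenorhabditis elegans, 115 of the 27782 genes in the count table, were followed through whole-worm RNA-seq of 9 groups of adults. They were taken by name: every gene whose symbol is of the class lys, ilys, spp, cnc, abf, irg, thn, fipr or dod with a number, and sysm-1. By class these were 30 spp, 28 fipr, 11 cnc, 10 lys, 10 dod, 8 irg, 6 abf, 6 ilys and 5 thn genes with sysm-1. The choice was by name alone, but it was made with earlier results of these data known. Symbols for a further 2 genes, fipr-12 and spp-27, fit the names and were not analysed here. Chromosome V carried 42 of the genes, chromosome IV 28, X 18, I 12, III 10 and II 5, and 24 runs of neighbouring members lay within 10000 bp of each other (coordinates are of build WBcel235). Examples are the 6 caenacin genes cnc-11, cnc-1, cnc-5, cnc-4, cnc-3 and cnc-2 (chromosome V, 1442342 to 1450183) and lys-1, lys-2 and lys-3 (chromosome V, 10277904 to 10283544). Where neighbouring copies are alike in sequence, reads may have been divided among them, and how such reads were counted is not given in the sources used here.

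The worm has no antibody-based immunity and no circulating phagocytes, and it meets microbes mainly through the intestine, where it digests bacteria, and through the epidermis. Secreted effectors include lysozymes (lys and ilys), which cut bacterial cell wall peptidoglycan, saposin-like caenopores (spp), some of which open pores in bacterial membranes, defensin-like antibacterial factors (abf), and small glycine-rich caenacin (cnc) and fungus-induced (fipr) peptides. Many intestinal effectors are switched on by the PMK-1 p38 MAP kinase pathway through the factor ATF-7, and others by ZIP-2, the GATA factor ELT-2 or DAF-16; the dod genes were named as downstream of DAF-16, and several encode secreted proteins with a CUB-like domain.

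The worms were of the wild-type strain N2, grown on HT115 bacteria at 20 °C from the first larval stage to day 1 of adulthood with 10 µM 5-fluorouracil, which blocks the making of progeny, and many worms were pooled for a library. Batch 1 held DMSO, the solvent, and 31.5 µM terbinafine, 250 µM miglustat, 500 µM BAY2402234, 500 µM brequinar and dhod-1 RNAi with DMSO; batch 2 held its own DMSO group, 50 µM doxycycline and 250 µM teriflunomide. All groups except dhod-1 RNAi received bacteria marked ev, read here as the empty RNAi vector, and each had 4 biological replicates, as the labels call them. Terbinafine inhibits squalene epoxidase, miglustat inhibits glucosylceramide synthase, and the antibiotic doxycycline blocks translation in bacteria and mitochondria; BAY2402234, brequinar and teriflunomide inhibit dihydroorotate dehydrogenase, the mitochondrial pyrimidine enzyme that dhod-1 encodes. The food is bacterial and 1 of the agents is an antibiotic; the labels give no measure of the bacteria, and what part of any change passed through them was not tested.

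Total counts lay between 19253276 and 20455600 per library. On principal components of 9460 genes, doxycycline stood apart on the first (63.1% of the variance). On the first, BAY2402234 replicate 1 lay at -7.81 against 13.1 to 24.4 in its group, and batch 2 DMSO replicate 1 at -19.6 against 19.6 to 23.9; on the second (14.8%) 3 libraries lay apart from the rest of their group: batch 2 DMSO replicate 1, at 28.3 against -7.2 to 8.18, and dhod-1 RNAi replicates 3 and 4, at -53.9 and -64.9 against -30.8 and -30.5. Counts of effector genes called without these libraries, in the comparisons with DMSO, are given beside the results. dhod-1 itself stood at 58.1, 78.5, 68.2 and 70.8 CPM (counts scaled by library size) in its RNAi libraries and at 82.7, 79.8, 90.3 and 81.4 CPM in batch 1 DMSO, -0.28 on the log2 scale (adjusted p = 0.00482, edgeR). Reads of the double-stranded RNA given to the worms cannot be told apart from those of the transcript. dhod-1 stood at 56.4, 63.3, 68.2 and 58.5 CPM with BAY2402234 and 56.8, 56.9, 53.1 and 52.6 CPM with doxycycline, within or below the range of the RNAi libraries. Intestinal, pharyngeal, epidermal, germ line and sperm marker lists were all detected in every group, and each had a count for all of its genes; of the 10 embryo markers, 3 had no count with doxycycline and 1 each with terbinafine, BAY2402234 and teriflunomide.

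Compared per exon length, as RPKM, which is CPM divided by the exon length in kilobases, spp-5 had the highest level of all the effector genes in each of the 9 groups. spp-5 (chromosome X, 7319937 to 7320354) encodes a caenopore that kills Escherichia coli in the test tube, and its mean level was 701 RPKM in batch 1 DMSO, 1164 RPKM in batch 2 DMSO and 2056 RPKM with doxycycline. In batch 1 DMSO it was followed by spp-14 at 428 RPKM, lys-1 at 364 RPKM, spp-3 at 310.4 RPKM and ilys-5 at 242 RPKM. With brequinar the second place was taken by irg-5, at 414 RPKM. Summed over all 115 genes, the level was 3599 ± 446 CPM (SD, n = 4) in batch 1 DMSO, 5706 ± 709 with BAY2402234, 5619 ± 639 with dhod-1 RNAi and 3217 ± 307 with brequinar. In batch 2 it was 4179 ± 580.5 CPM in DMSO, 8842 ± 548 with doxycycline and 4341 ± 201 with teriflunomide. The doxycycline libraries lay above all 4 DMSO libraries, whereas the teriflunomide libraries lay within their range.

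The changes were few with terbinafine and miglustat and many with the other 5 treatments, and the direction differed: doxycycline, dhod-1 RNAi and BAY2402234 raised more effector genes than they lowered, and brequinar and teriflunomide lowered more than they raised. Each treatment was compared with the DMSO group of its batch, over 15142 genes in batch 1 and 15695 in batch 2, and a gene is said to have risen or fallen where the adjusted p of edgeR's quasi-likelihood test was below 0.05. 65 of the effector genes had enough counts to be tested in both batches, 1 in batch 1 only and 15 in batch 2 only, while 34 were tested in neither. With terbinafine 0 of 66 tested rose and 4 fell; of all genes 0.898% were called, 0.68% higher and 0.218% lower. With miglustat 2 rose and 0 fell, against 0.581% of all genes, 0.436% higher and 0.145% lower. At an unadjusted p below 0.05 there were 20 effector genes with terbinafine and 13 with miglustat. The share of all genes at that threshold is not set beside these counts, so no excess is read from them. BAY2402234 gave 27 rises and 12 falls among 66, against 46.8% of all genes called, 23.2% higher and 23.6% lower. Under dhod-1 RNAi 35 rose and 12 fell, against 61.4% called, 31.3% higher and 30.1% lower. Brequinar gave 4 rises and 18 falls, against 15.7%, 5.03% higher and 10.6% lower. Doxycycline gave 47 rises and 11 falls among 80, against 84.9%, 44.8% higher and 40.2% lower. Teriflunomide gave 16 rises and 30 falls, against 38.8%, 19% higher and 19.7% lower. In percent of members tested these were 6.06 (terbinafine), 3.03 (miglustat), 59.1 (BAY2402234), 33.3 (brequinar), 71.2 (dhod-1 RNAi), 72.5 (doxycycline) and 57.5 (teriflunomide), so that the share with doxycycline was below that of all genes. The median log2 fold change of the effector genes and of all genes was 0.91 and 0.23 with doxycycline, 0.59 and -0.01 with dhod-1 RNAi, 0.30 and 0.10 with BAY2402234, -0.10 and -0.02 with teriflunomide and -0.29 and 0.01 with brequinar.

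**Figure D1:**
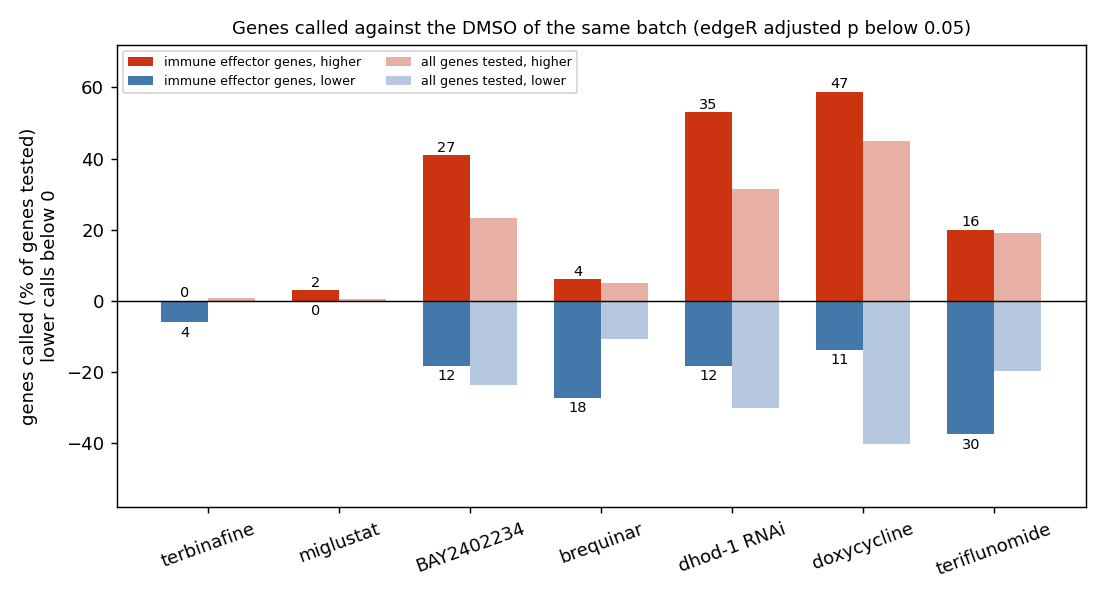
Percent of genes tested that were called higher or lower (edgeR adjusted p below 0.05) in each comparison with DMSO, for the immune effector genes and for all genes. Falls outnumber rises with brequinar (18 and 4 genes) and teriflunomide (30 and 16), and rises outnumber falls with BAY2402234, dhod-1 RNAi and doxycycline.

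Of the 81 genes tested in either batch, 78 changed with at least 1 treatment: 29 only rose, 6 only fell and 43 rose with some treatments and fell with others. The shares of all genes with these patterns are not set beside them. Doxycycline alone called 84.9% of all genes tested, so no trait of the effector genes is read from these counts. The counts of calls with brequinar, terbinafine and miglustat were sensitive to single libraries. The shares of all genes called without those libraries are not set beside them, so no trait of the effector genes is read from the shifts. For brequinar, in place of 22 genes called, there were 11 without brequinar replicate 3, 12 without batch 1 DMSO replicate 1, 13 without brequinar replicate 4 and 14 without brequinar replicate 2 or batch 1 DMSO replicates 3 or 4. For terbinafine, in place of 4, there were 1 without batch 1 DMSO replicate 1 or terbinafine replicate 3 and 2 without batch 1 DMSO replicates 2 or 4 or terbinafine replicates 1 or 2. For miglustat, in place of 2, there was 1 without batch 1 DMSO replicates 1, 2, 3 or 4 or miglustat replicates 2 or 3. Without dhod-1 RNAi replicates 3 and 4 together, 27 genes were called in place of 47, none with a changed sign, and of all genes 32.9% were called in place of 61.4%. The 21 calls lost, named here for that reason alone, were abf-6, cnc-10, cnc-3, dod-18, dod-20, fipr-1, fipr-2, fipr-24, ilys-2, ilys-4, ilys-5, irg-1, irg-5, irg-8, lys-1, spp-15, spp-2, spp-24, spp-25, spp-3 and thn-2. Without BAY2402234 replicate 1, 26 rose and 13 fell with BAY2402234, where 22.7% of all genes rose and 15.5% fell. The calls of abf-5, dod-24, spp-15 and spp-31 were lost. Without batch 2 DMSO replicate 1, teriflunomide had 61 calls in place of 46 and doxycycline 63 in place of 58. Of all genes, 57.2% were then called with teriflunomide in place of 38.8%, and 86.9% with doxycycline in place of 84.9%.

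**Figure D2:**
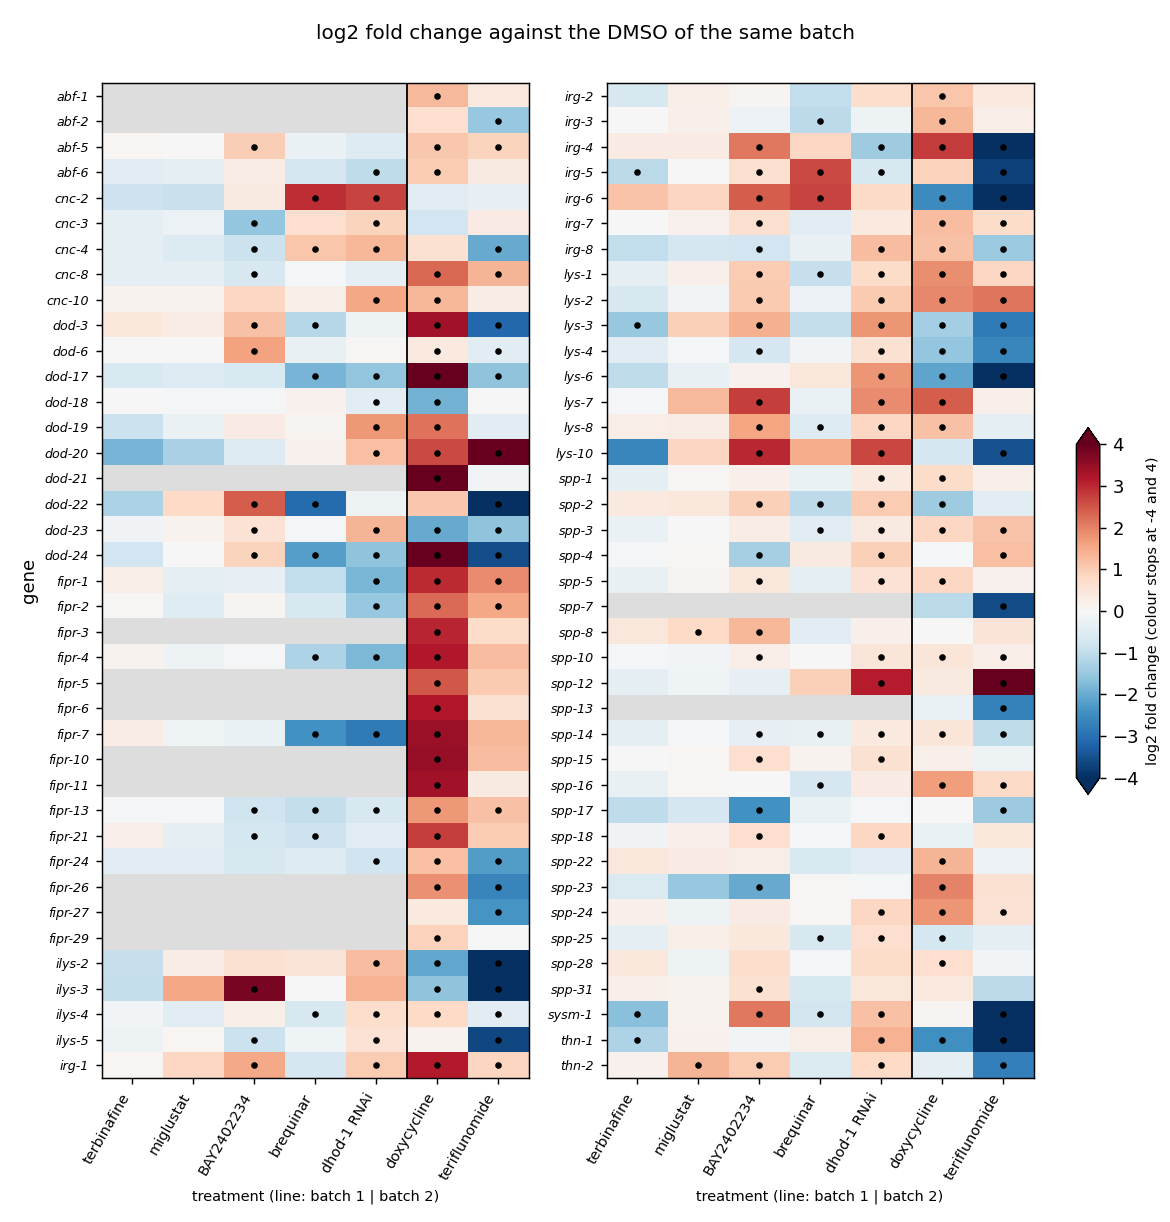
Log2 fold change of the 78 effector genes called in at least 1 comparison with DMSO, by gene (rows) and treatment (columns); dots mark calls and grey marks genes not tested. 43 of the rows carry calls of both directions, and the teriflunomide column holds the deepest falls. The share of all genes with calls of both directions is not set beside this count.

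The libraries are of whole worms, so that fewer cells of a type and less RNA per cell cannot be told apart, and tissue markers changed together with many of the effector genes. Of 15 intestinal markers, 7 rose and 2 fell with BAY2402234, 6 rose and 0 fell with dhod-1 RNAi, 0 rose and 5 fell with brequinar, 13 rose and 1 fell with doxycycline and 10 rose and 0 fell with teriflunomide; none passed with terbinafine or miglustat. Their summed level ran from 3273 to 4189.8 CPM in batch 1 DMSO, 4991 to 7391 with BAY2402234, 3338 to 4872 with dhod-1 RNAi and 1749 to 2301 with brequinar. In batch 2 it ran from 3725 to 5658 CPM in DMSO, 9812 to 11164 with doxycycline and 7356 to 7991 with teriflunomide. Of 16 oocyte and germ line markers, 15 fell with doxycycline, where their sum was 863 to 1228 CPM against 9934 to 13420.0 CPM in DMSO, 16 with dhod-1 RNAi and 12 with BAY2402234; none was called with brequinar or teriflunomide. Of 12 epidermal markers, 3 rose and 6 fell with doxycycline, 2 rose and 6 fell with teriflunomide, 4 rose and 2 fell with BAY2402234, 4 rose and 3 fell with dhod-1 RNAi and 0 rose and 1 fell with brequinar. Of 11 pharyngeal markers tested in batch 1, 2 rose and 0 fell with BAY2402234, 1 rose and 7 fell with dhod-1 RNAi and 0 rose and 5 fell with brequinar, and of 12 in batch 2, 8 rose and 3 fell with doxycycline and 6 rose and 4 fell with teriflunomide. Of 13 sperm markers, 0 rose and 12 fell with dhod-1 RNAi, 0 rose and 3 fell with brequinar, 1 rose and 0 fell with BAY2402234, 9 rose and 0 fell with doxycycline and 1 rose and 0 fell with teriflunomide. Without dhod-1 RNAi replicates 3 and 4, 2 intestinal markers rose and 5 germ line and 11 sperm markers fell. Without BAY2402234 replicate 1, 5 germ line markers fell. Marker counts without batch 2 DMSO replicate 1 are not given here. In batch 2 the summed sperm markers ran from 103.5 to 880 CPM in DMSO, 708 to 1270 with doxycycline and 687 to 967 with teriflunomide. The pharyngeal sum ran from 756 to 1394 CPM in DMSO, 3362 to 3809 with doxycycline and 1786 to 2160 with teriflunomide. The part of these shifts in the changes of the effector genes was not tested.

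sysm-1 (chromosome II, 9082626 to 9083193) encodes a small ShK-type protein and serves as a reporter of PMK-1 and ATF-7 activity. It stood at 26.6, 16.2, 22.3 and 22.1 CPM in batch 1 DMSO and at 6.83, 8.04, 6.94 and 5.73 CPM with terbinafine. With BAY2402234 it stood at 141, 90.5, 80.8 and 59.9 CPM, with brequinar at 16.1, 11.2, 10.3 and 15 CPM and with dhod-1 RNAi at 49.5, 42.9, 50.2 and 55.7 CPM. All 4 terbinafine libraries and all 4 brequinar libraries were thus below every DMSO library, and all BAY2402234 and dhod-1 RNAi libraries above. The log2 fold change was -1.66 (edgeR, SE 0.24, adjusted p = 0.000459) with terbinafine, the smallest p of the 4 effector genes called there. It was 2.09 (edgeR, SE 0.23, adjusted p = 2.61e-06) with BAY2402234, 1.19 (edgeR, SE 0.23, adjusted p = 0.00015) with dhod-1 RNAi and -0.73 (edgeR, SE 0.23, adjusted p = 0.0363) with brequinar. sysm-1 with brequinar missed the threshold at -0.80 to -0.63 without brequinar replicates 2, 3 or 4 or batch 1 DMSO replicates 1, 3 or 4.

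In batch 2 sysm-1 was nearly silent with teriflunomide. It stood at 4.31, 25.2, 38.1 and 49 CPM in DMSO, 22.8, 35.3, 32.1 and 35.4 CPM with doxycycline and 0, 0, 0.106 and 0.164 CPM with teriflunomide. The DMSO libraries themselves spread widely, with replicate 1 the lowest, yet each lay far above the teriflunomide libraries, 5 counts in all against 2343 in DMSO. The ratio of DMSO to teriflunomide was 434 (95% counting interval 186 to 1340.0; intervals of this kind cover counting error only), and the fitted log2 fold change was -8.63 (edgeR, SE 0.93, adjusted p = 5.5e-05). With doxycycline sysm-1 overlapped DMSO, at a log2 fold change of 0.11 (edgeR, SE 0.54, adjusted p = 0.854). sysm-1 with teriflunomide stayed called at -9.41 without teriflunomide replicate 4.

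**Figure D3:**
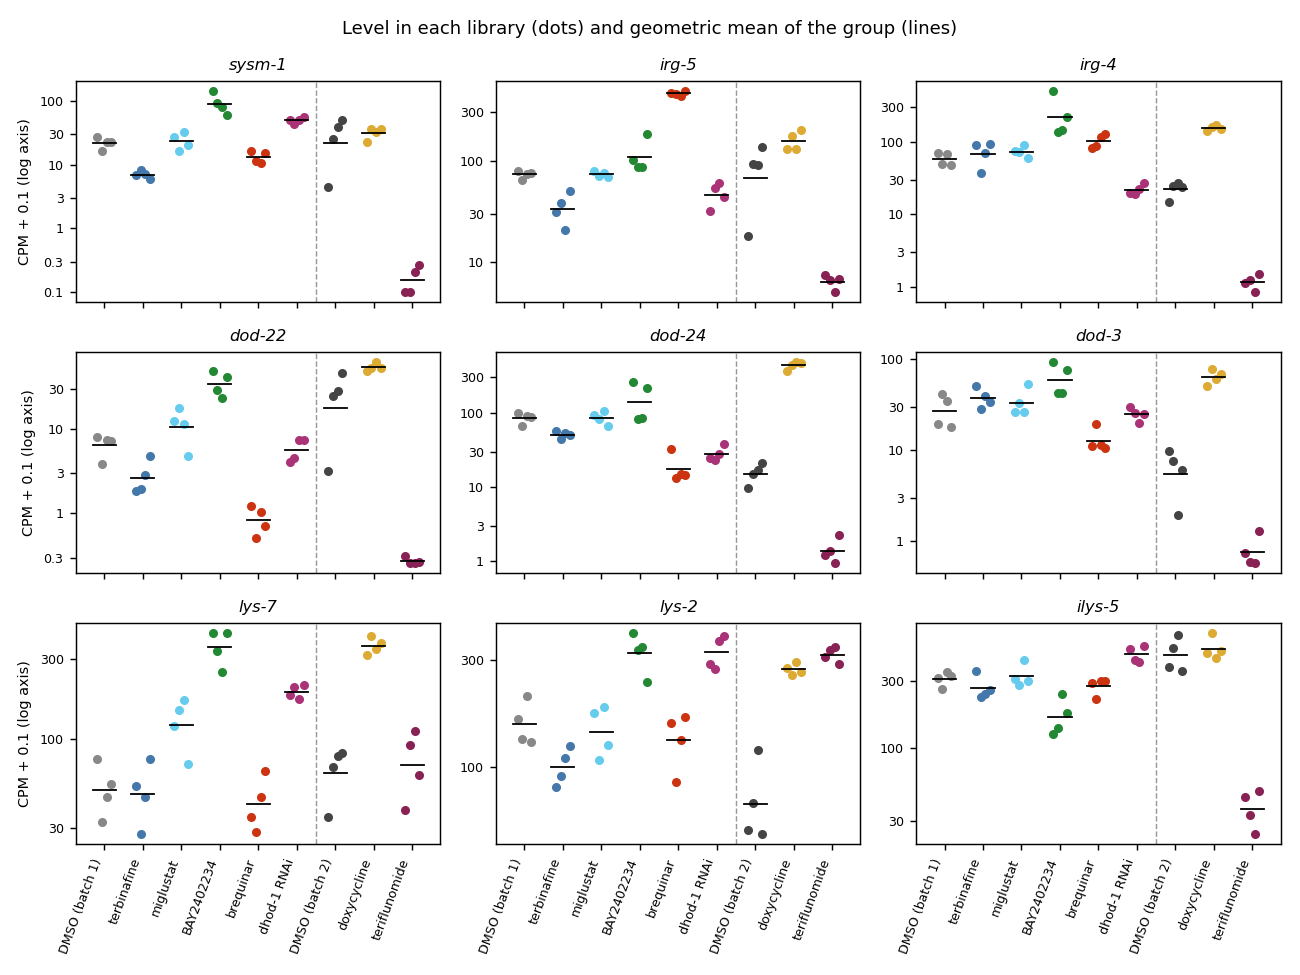
Level of 9 effector genes in each of the 36 libraries (CPM + 0.1, log axis), by group; dots are libraries and lines are geometric means of the group. sysm-1, irg-4, irg-5, dod-22, dod-24 and dod-3 are lowest with teriflunomide, irg-5 is highest with brequinar, and lys-2 stands above DMSO with both doxycycline and teriflunomide.

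irg-4 and irg-5 encode CUB-like proteins of the infection response that depend on PMK-1, and irg-5 rose with brequinar, where irg-4 missed the threshold; the difference between the 2 genes was not tested. irg-5 (chromosome V, 13737010 to 13738474) stood at 79.3, 65, 74.6 and 76.4 CPM in batch 1 DMSO and at 465, 458, 438 and 487 CPM with brequinar, a tight group far above every other library of the series. The log2 fold change was 2.65 (edgeR, SE 0.24, adjusted p = 2.9e-06), and among the effector genes called with brequinar only cnc-2 and the scarce irg-6 had a larger rise. irg-5 was 31.1, 38.1, 20.9 and 50.6 CPM with terbinafine and 31.6, 53.8, 60.1 and 43.9 CPM with dhod-1 RNAi, in both cases below all DMSO libraries. The log2 fold changes were -1.07 (edgeR, SE 0.24, adjusted p = 0.0278) and -0.64 (edgeR, SE 0.23, adjusted p = 0.023). With BAY2402234 it was 102, 86.2, 86.4 and 184 CPM, with 1 library far above the other 3, at 0.64 (edgeR, SE 0.23, adjusted p = 0.0295). In batch 2 irg-5 stood at 18, 93.1, 90.6 and 138 CPM in DMSO and 7.33, 6.53, 4.97 and 6.78 CPM with teriflunomide, which lay below all 4, at -3.73 (edgeR, SE 0.50, adjusted p = 0.000237). irg-5 with terbinafine missed the threshold at -1.06 to -0.89 without batch 1 DMSO replicates 1, 3 or 4 or terbinafine replicates 1 or 3. irg-5 with dhod-1 RNAi missed the threshold at -0.60 to -0.49 without dhod-1 RNAi replicates 1 or 4. irg-5 with BAY2402234 missed the threshold at 0.31 to 0.66 without BAY2402234 replicate 4 or batch 1 DMSO replicates 2 or 3.

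irg-4 (chromosome IV, 12435833 to 12438236) stood at 69.8, 49.5, 67.1 and 47 CPM in batch 1 DMSO, 499, 136, 147 and 221 CPM with BAY2402234 and 19.6, 19.2, 22 and 26.6 CPM with dhod-1 RNAi. The BAY2402234 libraries were all above DMSO and the dhod-1 RNAi libraries all below, at log2 fold changes of 2.10 (edgeR, SE 0.34, adjusted p = 0.00012) and -1.42 (edgeR, SE 0.34, adjusted p = 0.00155). With brequinar it was 82.1, 86.4, 116 and 129.6 CPM, above DMSO in every library, but the change missed the threshold at 0.83 (edgeR, SE 0.33, adjusted p = 0.0907). In batch 2 irg-4 was 14.8, 24.6, 27.1 and 23.3 CPM in DMSO, 142, 160.1, 168 and 151 CPM with doxycycline and 1.01, 1.13, 0.74 and 1.42 CPM with teriflunomide. The 3 groups did not overlap, and the log2 fold changes were 2.79 (edgeR, SE 0.18, adjusted p = 2.8e-08) with doxycycline and -4.38 (edgeR, SE 0.22, adjusted p = 1.2e-07) with teriflunomide.

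The dod genes of chromosome IV, dod-22 and dod-17 at 12965374 to 12978343 and dod-24 and dod-21 at 12936738 to 12941354, encode CUB-like proteins or relatives of them, and their changes were among the largest of all effector genes. dod-22 stood at 8.04, 3.79, 7.32 and 7.06 CPM in batch 1 DMSO, 48.7, 29.1, 23.3 and 40.9 CPM with BAY2402234 and 1.14, 0.411, 0.937 and 0.617 CPM with brequinar. The 3 groups did not overlap, with log2 fold changes of 2.44 (edgeR, SE 0.36, adjusted p = 4.14e-05) for BAY2402234 and -3.07 (edgeR, SE 0.44, adjusted p = 8.73e-05) for brequinar. With dhod-1 RNAi it was 3.92, 4.43, 7.26 and 7.3 CPM, in the range of DMSO, at -0.19 (edgeR, SE 0.36, adjusted p = 0.659). In batch 2 dod-22 was 3.11, 24.1, 28.1 and 46.4 CPM in DMSO, with replicate 1 the lowest, and 0.212, 0.162, 0.159 and 0.164 CPM with teriflunomide, below each DMSO library, at -7.14 (edgeR, SE 0.81, adjusted p = 8.36e-05). With doxycycline it was 48.3, 51.9, 61.9 and 52.7 CPM, above all DMSO libraries, but the change missed the threshold at 1.08 (edgeR, SE 0.52, adjusted p = 0.0734). dod-22 with doxycycline passed the threshold at 0.70 to 1.53 without batch 2 DMSO replicates 1 or 4.

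dod-24 stood at 98.8, 66.7, 91.7 and 88.9 CPM in batch 1 DMSO, 32.8, 13.2, 14.9 and 14.2 CPM with brequinar and 24.8, 23.3, 27.6 and 38.2 CPM with dhod-1 RNAi, both below every DMSO library. The log2 fold changes were -2.20 (edgeR, SE 0.34, adjusted p = 0.000232) and -1.60 (edgeR, SE 0.33, adjusted p = 0.000394). With BAY2402234 the 4 libraries were split, at 260.0, 82.4, 84.8 and 216 CPM, and overlapped DMSO, with 0.90 (edgeR, SE 0.32, adjusted p = 0.0269). In batch 2 dod-24 ran from 9.68, 15.1, 16.8 and 21.1 CPM in DMSO to 365, 440.2, 485 and 472 CPM with doxycycline, and to 1.12, 1.3, 0.846 and 2.13 CPM with teriflunomide. Doxycycline lay above and teriflunomide below all DMSO libraries, at 4.81 (edgeR, SE 0.26, adjusted p = 4.67e-09) and -3.54 (edgeR, SE 0.29, adjusted p = 5.6e-06). dod-24 with BAY2402234 missed the threshold at 0.62 to 0.80 without BAY2402234 replicates 1 or 4 or batch 1 DMSO replicate 2.

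dod-17 fell, as dod-24 did, with brequinar (-1.87 on the log2 scale), dhod-1 RNAi (-1.58) and teriflunomide (-1.62), while with BAY2402234, where dod-24 rose, it did not pass (-0.61). It rose with doxycycline, from 4.81, 1.88, 1.7 and 1.43 CPM in batch 2 DMSO to 60.6, 58.1, 73.1 and 61.1 CPM, at 4.68 (edgeR, SE 0.38, adjusted p = 2.43e-07). dod-21 had 7 counts over the 4 batch 2 DMSO libraries and 740 over the 4 doxycycline libraries, which stood at 6.39, 10.2, 6.99 and 12.7 CPM. Its ratio was 104 (95% counting interval 50.2 to 259), the largest rise in the series among the effector genes tested, with a fitted log2 fold change of 6.61 (edgeR, SE 0.63, adjusted p = 9.68e-07). dod-3 (chromosome V, 2730622 to 2731098), whose product is not annotated in the tables used, showed the same directions as dod-24 in 4 of its comparisons. It stood at 19.1, 41.6, 34.8 and 18 CPM in batch 1 DMSO, 92.9, 42, 42.6 and 75.5 CPM with BAY2402234 and 11.1, 19.2, 11.2 and 10.3 CPM with brequinar, which overlapped DMSO. The log2 fold changes were 1.16 (edgeR, SE 0.31, adjusted p = 0.00554) and -1.13 (edgeR, SE 0.32, adjusted p = 0.0224). In batch 2 it was 9.68, 7.52, 1.85 and 6.01 CPM in DMSO, 51.1, 78.5, 60.6 and 68.5 CPM with doxycycline and 0.638, 0.486, 0.476 and 1.2 CPM with teriflunomide, 3 groups without overlap, at 3.37 (edgeR, SE 0.41, adjusted p = 1.08e-05) and -3.15 (edgeR, SE 0.47, adjusted p = 0.000423). dod-17 with BAY2402234 passed the threshold at -0.99 without BAY2402234 replicate 1. dod-3 with brequinar missed the threshold at -1.06 to -0.90 without brequinar replicates 3 or 4 or batch 1 DMSO replicates 2 or 3.

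The lysozymes rose with dhod-1 RNAi and mostly with BAY2402234, and went both ways in batch 2. Of 8 lys genes tested in batch 1, 8 rose and 0 fell with dhod-1 RNAi, 6 rose and 1 fell with BAY2402234 and 0 rose and 2 fell with brequinar; 31.3%, 23.2% and 5.03% of all genes rose. Of 8 tested in batch 2, 4 rose and 3 fell with doxycycline and 2 rose and 4 fell with teriflunomide, where 44.8% and 19% of all genes rose and 40.2% and 19.7% fell. Without dhod-1 RNAi replicates 3 and 4, 7 of 8 rose with the knockdown, where 19.3% of all genes rose. Without batch 2 DMSO replicate 1, 5 fell with doxycycline and 6 with teriflunomide, of 9 tested, where 41.4% and 26.4% of all genes fell. lys-7 (chromosome V, 3481432 to 3482600), a lysozyme also known as a DAF-16 target, stood at 76.8, 32.5, 45.3 and 54.6 CPM in batch 1 DMSO, 426, 333, 248 and 424 CPM with BAY2402234 and 183, 203, 173 and 209 CPM with dhod-1 RNAi. Both treatments were above all DMSO libraries, at 2.77 (edgeR, SE 0.33, adjusted p = 7.93e-06) and 1.88 (edgeR, SE 0.32, adjusted p = 5.67e-05), whereas brequinar, at 34.5, 28.3, 45.3 and 65 CPM, overlapped DMSO at -0.28 (edgeR, SE 0.32, adjusted p = 0.576). With doxycycline it was 316, 409, 343 and 372 CPM against 34.6, 68.5, 80.1 and 83.2 CPM in batch 2 DMSO, without overlap, at 2.43 (edgeR, SE 0.34, adjusted p = 4.38e-05). With teriflunomide it was 37.9, 92.4, 112 and 61.2 CPM, which overlapped DMSO at 0.19 (edgeR, SE 0.33, adjusted p = 0.656).

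lys-1 and lys-2, neighbours on chromosome V, were the lysozymes that rose with teriflunomide. lys-2 (chromosome V, 10280307 to 10281474) stood at 52.2, 69.3, 118 and 50.3 CPM in batch 2 DMSO, 307, 333, 342 and 286 CPM with teriflunomide and 275, 256, 292 and 266 CPM with doxycycline; both lay above all DMSO libraries, at 2.13 (edgeR, SE 0.23, adjusted p = 5.35e-05) and 1.91 (edgeR, SE 0.23, adjusted p = 9.98e-06). In batch 1 it was 163, 133, 207 and 129.7 CPM in DMSO, 394, 329.9, 341 and 238 CPM with BAY2402234 and 286, 273, 364 and 382 CPM with dhod-1 RNAi, again without overlap, at 1.04 (edgeR, SE 0.21, adjusted p = 0.000797) and 1.05 (edgeR, SE 0.21, adjusted p = 0.00034). Brequinar gave 158, 85.6, 132 and 167 CPM and did not pass, at -0.22 (edgeR, SE 0.21, adjusted p = 0.504). lys-1 rose by 3.6-fold with doxycycline (1.85 on the log2 scale), and by 1.02 with BAY2402234, 0.73 with dhod-1 RNAi and 0.81 with teriflunomide on the log2 scale, and it fell with brequinar (-0.91). Its dhod-1 RNAi call was lost without replicates 3 and 4, at 0.44. lys-8 rose with BAY2402234 (1.57), doxycycline (1.16) and dhod-1 RNAi (0.83).

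lys-4 and lys-10 fell with teriflunomide. lys-4 (chromosome IV, 11621429 to 11623174) stood at 63.9, 156, 159 and 144 CPM in batch 2 DMSO, with replicate 1 the lowest, and at 49.1, 54.8, 36 and 40.2 CPM with doxycycline and 27.4, 20.6, 17.1 and 21 CPM with teriflunomide. Both lay below all DMSO libraries, at -1.54 (edgeR, SE 0.26, adjusted p = 0.000195) and -2.60 (edgeR, SE 0.28, adjusted p = 4.47e-05). In batch 1 lys-4 fell with BAY2402234 (-0.67) and rose with dhod-1 RNAi (0.61). lys-10 (chromosome IV, 8332826 to 8333518) is scarce: it stood at 0.653, 0.404, 0.366 and 0.571 CPM in batch 1 DMSO, 2.88, 2.63, 3.24 and 4.01 CPM with dhod-1 RNAi and 1.78, 2.87, 1.8 and 9.97 CPM with BAY2402234, where replicate 4 lay far above the other 3. The log2 fold changes were 2.66 (edgeR, SE 0.66, adjusted p = 0.00167) and 3.03 (edgeR, SE 0.66, adjusted p = 0.00115). With teriflunomide it fell from 0.602, 2.31, 1.54 and 1.82 CPM in DMSO to 0.159, 0.108, 0.106 and 0.164 CPM, at -3.49 (edgeR, SE 0.44, adjusted p = 0.00012). lys-10 with BAY2402234 stayed called at 2.09 without BAY2402234 replicate 4.

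The invertebrate-type lysozymes fell together with teriflunomide: 4 of 4 ilys genes tested in batch 2 fell, beside 19.7% of all genes, with a median log2 fold change of -4.79, beside a median of -0.02 over all genes. ilys-5 (chromosome X, 6533490 to 6536840), the most abundant of them, stood at 374, 518, 638 and 353 CPM in DMSO and 44, 33.2, 24.1 and 48.9 CPM with teriflunomide, at -3.65 (edgeR, SE 0.27, adjusted p = 2.62e-06). The groups were far apart, and with doxycycline it overlapped DMSO, at 471, 659, 436 and 494 CPM and 0.13 (edgeR, SE 0.24, adjusted p = 0.619). ilys-2 (chromosome IV, 2467678 to 2468879) and ilys-3 (chromosome IV, 2464456 to 2465443), the latter a lysozyme known to digest ingested bacteria, lie beside each other. ilys-2 stood at 0.401, 3.76, 1.75 and 2.17 CPM in DMSO and had 2 counts in all with teriflunomide against 164, a ratio of 76 (95% counting interval 20.7 to 633). ilys-3 stood at 0.902, 2.41, 0.463 and 2.51 CPM in DMSO and had 1 count with teriflunomide against 128, a ratio of 119 (20.9 to 4720.0); edgeR's adjusted p was 0.000423 for ilys-2 and 0.000269 for ilys-3. Both also fell with doxycycline, at -2.07 and -1.60 on the log2 scale.

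In batch 1 the same family split with BAY2402234. ilys-3 rose from 0.151, 0.303, 0.366 and 0.104 CPM in DMSO to 4.83, 2.69, 1.46 and 4.05 CPM, without overlap, at 3.79 (edgeR, SE 0.60, adjusted p = 7.24e-05), the largest rise with that compound among the effector genes tested. ilys-5 fell from 313, 261, 348 and 323 CPM to 126, 137, 239.8 and 177 CPM, also without overlap, at -0.87 (edgeR, SE 0.18, adjusted p = 0.000634). With dhod-1 RNAi ilys-5 stood at 506, 422, 411 and 530.0 CPM, above all DMSO libraries, at 0.59 (edgeR, SE 0.17, adjusted p = 0.00644), and ilys-2 rose by 1.25 on the log2 scale; both calls were lost without dhod-1 RNAi replicates 3 and 4, at 0.58 and 0.96. With brequinar ilys-5 was 289, 223, 298 and 299 CPM, within the range of DMSO, at -0.17 (edgeR, SE 0.17, adjusted p = 0.54).

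**Figure D4:**
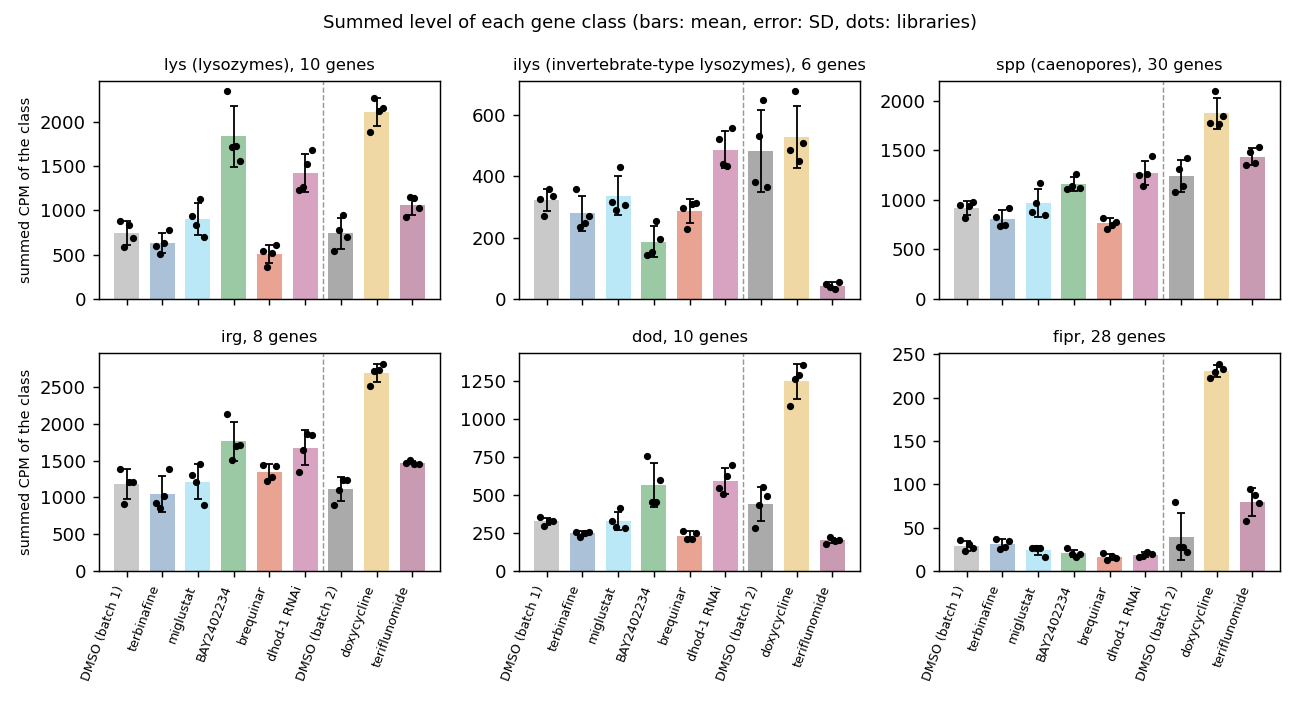
Summed CPM of the lys, ilys, spp, irg, dod and fipr genes in each library, by group; dots are libraries and bars are group means with their SD. The ilys sum was 482 ± 134 in batch 2 DMSO and 43.3 ± 10.5 with teriflunomide, and the fipr sum is highest with doxycycline.

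More saposin-like genes rose than fell with dhod-1 RNAi and doxycycline, and with doxycycline the share that rose was close to that of all genes. Of 19 tested in batch 1, 12 rose and 0 fell with dhod-1 RNAi, 7 rose and 4 fell with BAY2402234, and 0 rose and 5 fell with brequinar; of all genes, 31.3% rose and 30.1% fell, 23.2% and 23.6%, and 5.03% and 10.6% in the same order. Without dhod-1 RNAi replicates 3 and 4, 7 of 20 rose and 0 fell, where 19.3% of all genes rose. Of 21 in batch 2, 10 rose and 2 fell with doxycycline, and 6 rose and 4 fell with teriflunomide, where 44.8% and 19% of all genes rose and 40.2% and 19.7% fell. Without batch 2 DMSO replicate 1, 4 fell with doxycycline and 7 with teriflunomide, of 22 tested, where 41.4% and 26.4% of all genes fell. spp-5 stood at 375, 454, 385 and 508 CPM in batch 2 DMSO and 746, 887, 685 and 725 CPM with doxycycline, without overlap, at 0.82 (edgeR, SE 0.12, adjusted p = 3.8e-05). In batch 1 it was 254, 218, 283 and 282 CPM in DMSO, 389, 355, 378 and 439.9 CPM with dhod-1 RNAi and 340.0, 362, 419 and 306 CPM with BAY2402234, both above all DMSO libraries, at 0.59 (edgeR, SE 0.13, adjusted p = 0.000478) and 0.46 (edgeR, SE 0.13, adjusted p = 0.00615). spp-3 (chromosome X, 7314969 to 7315353), of the same run of 5 genes on the X chromosome, rose with teriflunomide from 99.5, 132, 114 and 146 CPM to 236, 277, 272 and 304 CPM, at 1.15 (edgeR, SE 0.12, adjusted p = 3.1e-05), and spp-4 of that run rose by 1.21 on the log2 scale. spp-17 (chromosome I, 1016405 to 1017176) fell with BAY2402234 from 43.3, 35, 40.7 and 46.4 CPM to 2.14, 11.8, 15.2 and 1.87 CPM, at -2.42 (edgeR, SE 0.47, adjusted p = 0.000577), and with teriflunomide (-1.45). Its neighbour spp-23 fell with BAY2402234, from 8.14, 8.79, 7.58 and 6.49 CPM to 1.37, 0.762, 0.828 and 4.72 CPM, where replicate 4 stood apart, and rose with doxycycline, from 20.6, 3.62, 28.3 and 8.18 CPM to 51.6, 70.5, 54.8 and 64.9 CPM. spp-1, which encodes a pore-forming caenopore and overlaps the exons of a gene on the opposite strand, rose with doxycycline (0.74) and dhod-1 RNAi (0.39); without knowledge of the strandedness its reads cannot be told from that gene's. spp-8 was 1 of the 2 effector genes that rose with miglustat, from 79.2, 69, 77.4 and 80.7 CPM in DMSO to 112, 166, 142 and 107 CPM, at 0.79 (edgeR, SE 0.17, adjusted p = 0.0346), and it rose with BAY2402234 (1.34). spp-8 with miglustat missed the threshold at 0.66 to 0.82 without batch 1 DMSO replicates 1, 2, 3 or 4 or miglustat replicates 2 or 3.

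The small peptides of the epidermis and their relatives include the fipr genes, most of which rose with doxycycline. Of 17 fipr genes tested in batch 2, 14 rose and 0 fell, beside 44.8% and 40.2% of all genes, with a median log2 fold change of 2.49 beside 0.23 over all genes. Their summed level was 223, 229, 239 and 233 CPM with doxycycline and 80.2, 27.8, 27.5 and 22.5 CPM in DMSO, where replicate 1 stood between the other 3 and the doxycycline libraries. fipr-10 (chromosome V, 9914163 to 9914529) stood at 4.81, 0.241, 0.206 and 0.197 CPM in DMSO and 14.5, 14.2, 17.5 and 14.7 CPM with doxycycline, at 3.48 (edgeR, SE 0.87, adjusted p = 0.00302). fipr-4 stood at 6.87, 1.69, 0.772 and 1.43 CPM and 29.8, 19.9, 26.7 and 22.9 CPM, at 3.20 (edgeR, SE 0.55, adjusted p = 0.000193). In both the doxycycline libraries lay above all DMSO libraries, and the high one in DMSO was replicate 1. fipr-7 and fipr-11 rose likewise, by 3.45 and 3.35 on the log2 scale. With teriflunomide 3 rose and 3 fell, and the summed level was 57.8, 94.7, 87.6 and 78.4 CPM. Without DMSO replicate 1, 8 more fipr genes passed with teriflunomide: fipr-10 at 3.87 in place of 1.24, fipr-7 at 3.38 in place of 1.32, fipr-4 at 2.27 in place of 1.23, and fipr-3, fipr-5, fipr-6, fipr-11 and fipr-21. Of all genes, 57.2% were called with teriflunomide without that library, in place of 38.8%. In batch 1, of 8 tested, 6 fell with dhod-1 RNAi, 4 with brequinar and 2 with BAY2402234, and none rose; 30.1%, 10.6% and 23.6% of all genes fell, so that the share with BAY2402234 was near that of all genes. In dhod-1 RNAi without replicates 3 and 4, 3 of 10 fipr genes fell, where 13.7% of all genes fell. fipr-4, fipr-5, fipr-6, fipr-7, fipr-8 and fipr-9 share 1 stretch of chromosome V (10220981 to 10239961), and reads of such neighbours may not be fully separable. fipr-10 with doxycycline stayed called at 6.10 without batch 2 DMSO replicate 1. fipr-4 with doxycycline stayed called at 4.24 without batch 2 DMSO replicate 1. fipr-7 with doxycycline stayed called at 5.50 without batch 2 DMSO replicate 1. fipr-11 with doxycycline stayed called at 5.13 without batch 2 DMSO replicate 1.

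Of the caenacins, cnc-2 and cnc-4 rose with brequinar and with dhod-1 RNAi. cnc-2 (chromosome V, 1449665 to 1450183), which is induced in the epidermis by the TGF-beta ligand DBL-1 during fungal infection, stood at 0.854, 0.253, 0.366 and 0.467 CPM in batch 1 DMSO, 2.32, 3.13, 5.62 and 4.22 CPM with brequinar and 2.98, 2.39, 4.16 and 3.24 CPM with dhod-1 RNAi. Both groups lay above all DMSO libraries, at 2.96 (edgeR, SE 0.34, adjusted p = 1.01e-05) and 6.51-fold (edgeR, adjusted p = 9.77e-07), while BAY2402234, at 0.592, 0.582, 0.779 and 0.534 CPM, overlapped DMSO at 0.35 (edgeR, SE 0.37, adjusted p = 0.451). cnc-4 (chromosome V, 1447195 to 1447707) stood at 3.57, 3.13, 3.03 and 4.93 CPM, 5.78, 9.14, 9.71 and 6.69 CPM and 9.0, 7.64, 11.4 and 8.92 CPM in the same 3 groups, at 1.09 (edgeR, SE 0.24, adjusted p = 0.00333) for brequinar and 1.33 (edgeR, SE 0.24, adjusted p = 6.94e-05) for dhod-1 RNAi, and it fell with BAY2402234 (-0.87). With teriflunomide cnc-4 fell as well, from 8.42, 18.6, 17.8 and 7.88 CPM to 2.87, 2.16, 3.65 and 4.21 CPM, at -2.03 (edgeR, SE 0.37, adjusted p = 0.00146), and cnc-2 overlapped DMSO at -0.31 (edgeR, SE 0.51, adjusted p = 0.638). cnc-8 rose with doxycycline (2.29) and teriflunomide (1.37). Of the defensin-like genes, abf-5 rose with doxycycline (1.09), BAY2402234 (0.98) and teriflunomide (0.90), and abf-2, at most 1.33 CPM in any DMSO or teriflunomide library of batch 2, fell with teriflunomide (-1.51). abf-2 with teriflunomide missed the threshold at -1.62 to -1.18 without batch 2 DMSO replicates 2, 3 or 4 or teriflunomide replicates 2, 3 or 4.

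The other infection response genes followed no single pattern. irg-1 (chromosome V, 3523587 to 3524679), the reporter gene of the ZIP-2 response to blocked translation, stood at 1.2, 2.99, 2.11 and 1.63 CPM in batch 2 DMSO and 24.7, 13.6, 18.8 and 15 CPM with doxycycline, without overlap, at 3.18 (edgeR, SE 0.30, adjusted p = 7.85e-07). In batch 1 it was 6.63, 3.89, 5.49 and 8.52 CPM in DMSO and 12.5, 23.6, 25.5 and 8.63 CPM with BAY2402234, at 1.52 (edgeR, SE 0.34, adjusted p = 0.00146). irg-7 (chromosome X, 3235754 to 3243636), a vitellogenin-like gene needed for PMK-1 activation, rose from 671, 851, 786 and 984 CPM to 1834, 1913, 2037 and 2020.0 CPM with doxycycline and to 1384, 1402, 1376 and 1364 CPM with teriflunomide. Both lay above every DMSO library, at 1.25 (edgeR, SE 0.10, adjusted p = 1.55e-07) and 0.75 (edgeR, SE 0.10, adjusted p = 0.000152), so that irg-7 rose with teriflunomide while irg-4, irg-5 and sysm-1 fell. irg-8 (chromosome V, 415870 to 417706) and its neighbour dod-19 rose together with dhod-1 RNAi, irg-8 from 270.0, 176, 246 and 205 CPM to 389, 479, 625 and 625 CPM, at 1.24 (edgeR, SE 0.31, adjusted p = 0.00194), and dod-19 from 101, 74.3, 90.1 and 77.8 CPM to 223, 233, 319 and 366 CPM, at 1.73 (edgeR, SE 0.28, adjusted p = 3.02e-05). The irg-8 call was lost without dhod-1 RNAi replicates 3 and 4, at 0.95. Both also rose with doxycycline, by 1.18 and 2.17 on the log2 scale, and irg-8 fell with teriflunomide (-1.48) and BAY2402234 (-0.78). irg-3 fell with brequinar (-1.04) and rose with doxycycline (1.32).

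Among the effector genes tested, the largest rises with teriflunomide were in 2 scarce genes, spp-12 and dod-20, which are below the level set for naming and were chosen after their values were seen. spp-12 (chromosome V, 13889816 to 13890327), a saposin-like gene, stood at 0.0501, 0.0964, 0.103 and 0.0493 CPM in batch 2 DMSO, 0, 0.207, 0.0475 and 0.146 CPM with doxycycline and 0.956, 2.38, 1.8 and 1.64 CPM with teriflunomide. The teriflunomide libraries lay above all others of the batch, with 126 counts against 6 in DMSO, a ratio of 22.7 (95% counting interval 10.1 to 62.9) and a fitted log2 fold change of 4.39 (edgeR, SE 0.54, adjusted p = 0.000105). In batch 1 it stood at 0.10, 0.101, 0.105 and 0.104 CPM in DMSO and 0.68, 0.73, 1.06 and 1.29 CPM with dhod-1 RNAi, without overlap, at 3.13 (edgeR, SE 0.55, adjusted p = 5.9e-05), the largest rise with the knockdown among the effector genes tested. BAY2402234, at -0.34 (edgeR, SE 0.76, adjusted p = 0.73), and brequinar, at 0.95 (edgeR, SE 0.66, adjusted p = 0.336), did not pass. fipr-22 of the panel, too scarce to be tested, had 71 counts with dhod-1 RNAi against 5 in batch 1 DMSO, without overlap. dod-20 (chromosome V, 422433 to 424177), which lies near irg-8 and dod-19, stood at 0.201, 0.193, 0.257 and 0.0985 CPM in batch 2 DMSO, 1.24, 0.931, 1.38 and 1.27 CPM with doxycycline and 3.13, 4.27, 4.23 and 2.62 CPM with teriflunomide. The 3 groups did not overlap, at 2.65 (edgeR, SE 0.31, adjusted p = 5.98e-06) and 4.21 (edgeR, SE 0.30, adjusted p = 1.64e-06), whereas its neighbour irg-8 fell with teriflunomide. With dhod-1 RNAi dod-20 rose as well (1.21), a call that was lost without replicates 3 and 4, at 0.61. dod-20 with dhod-1 RNAi missed the threshold at 1.02 to 1.14 without dhod-1 RNAi replicates 3 or 4 or batch 1 DMSO replicates 2, 3 or 4.

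irg-6 was scarce in batch 1, with 7 counts over the 4 DMSO libraries and 49 with brequinar, a ratio of 6.96 (95% counting interval 3.13 to 18.2), and in batch 2 it stood at 0.501, 2.94, 8.74 and 7.98 CPM in DMSO and 0.478, 0.162, 0.476 and 0.109 CPM with teriflunomide, at -4.01 (edgeR, SE 0.78, adjusted p = 0.00206). The thaumatin-family genes thn-1 and thn-2, neighbours on chromosome IV (12380084 to 12383974), both fell with teriflunomide. thn-1 stood at 3.41, 6.51, 3.96 and 5.67 CPM in batch 2 DMSO, 1.0, 0.931, 0.951 and 0.683 CPM with doxycycline and 0.744, 0.27, 0.106 and 0.0547 CPM with teriflunomide, both below DMSO, at -2.45 (edgeR, SE 0.45, adjusted p = 0.000311) and -4.02 (edgeR, SE 0.52, adjusted p = 0.000139). In batch 1 it was 10.8, 18.2, 9.31 and 10.0 CPM in DMSO, 8.82, 3.63, 4.42 and 3.81 CPM with terbinafine and 35.4, 23.5, 32.8 and 36.1 CPM with dhod-1 RNAi, below and above DMSO without overlap, at -1.23 (edgeR, SE 0.28, adjusted p = 0.0295) and 2.64-fold (edgeR, adjusted p = 0.000142). thn-2 stood at 28.6, 28.9, 19.2 and 21.9 CPM in batch 1 DMSO and 53.3, 99.3, 49.8 and 52.5 CPM with miglustat, above all DMSO libraries, at 1.37 (edgeR, SE 0.23, adjusted p = 0.00648), the larger of the 2 rises with that compound. With teriflunomide it fell from 31.9, 66.5, 34.1 and 58.4 CPM to 7.76, 6.53, 5.87 and 8.31 CPM, at -2.74 (edgeR, SE 0.24, adjusted p = 1.07e-05). The remaining call with terbinafine, named here after its values were seen because the 4 calls are few, was lys-3, with -1.53 on the log2 scale and 1.36, 0.909, 0.784 and 1.45 CPM in DMSO against 0.157, 0.311, 0.463 and 0.609 CPM. thn-1 with teriflunomide stayed called at -5.03 without teriflunomide replicate 1. thn-1 with terbinafine missed the threshold at -1.28 to -0.96 without batch 1 DMSO replicates 1 or 2 or terbinafine replicates 2, 3 or 4. lys-3 with terbinafine missed the threshold at -1.63 to -1.28 without batch 1 DMSO replicates 1, 2 or 4 or terbinafine replicates 1, 2 or 3.

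Of the dod genes outside that chromosome IV group, dod-23 rose with dhod-1 RNAi, from 85.9, 84.4, 77.1 and 101 CPM to 243, 186, 223 and 239 CPM, at 1.35 (edgeR, SE 0.13, adjusted p = 5.25e-08), and with BAY2402234 (0.58). It fell with doxycycline, from 121, 274, 268 and 271 CPM in DMSO, with replicate 1 the lowest, to 46, 74.6, 45.1 and 65.9 CPM, at -2.01 (edgeR, SE 0.26, adjusted p = 1.86e-05), and with teriflunomide (-1.62). dod-6 rose with BAY2402234 (1.60). dod-18, whose exons overlap a gene on the opposite strand, fell with doxycycline (-1.88).

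BAY2402234 and brequinar, which target the same enzyme and were given at the same 500 µM in the same batch, were compared directly. 37 of 66 effector genes tested were higher with BAY2402234 and 10 lower, where 63.4% of all genes were called, 33.2% higher and 30.2% lower. The largest difference was that of dod-22, at 5.50 (edgeR, SE 0.44, adjusted p = 7.18e-09), and dod-24 was higher by 3.10, lys-7 by 3.05, sysm-1 by 2.83 and ilys-3 by 3.79 on the log2 scale. Those lower with BAY2402234 included cnc-2, at -2.61 (edgeR, SE 0.33, adjusted p = 8.39e-07), irg-5, at -2.01 (edgeR, SE 0.24, adjusted p = 7.23e-07), and cnc-4, at -1.96 (edgeR, SE 0.25, adjusted p = 1.03e-06). The 2 groups did not overlap in dod-22, sysm-1 or irg-5. Intestinal markers differed too, 12 of 15 higher with BAY2402234 and 1 lower, and so did all 16 oocyte and germ line markers, lower with BAY2402234; their part in the difference was not tested.

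Brequinar and dhod-1 RNAi, the compound and the knockdown aimed at the same enzyme, differed in 41 of 66 effector genes, 4 higher and 37 lower with brequinar, where 64.3% of all genes were called, 27.9% higher and 36.4% lower. irg-5 and irg-4 were higher with brequinar, at 3.29 (edgeR, SE 0.25, adjusted p = 8.04e-08) and 2.25 (edgeR, SE 0.35, adjusted p = 2.46e-05). dod-22 was lower by 7.34-fold, at -2.88 (edgeR, SE 0.44, adjusted p = 1.5e-05), lys-7 was lower at -2.15 and sysm-1 at -1.92 on the log2 scale. The caenacin cnc-2 did not pass between these groups, with a log2 difference of 0.26 (edgeR, SE 0.29, adjusted p = 0.44), and neither did dod-17, at -0.29 (edgeR, SE 0.36, adjusted p = 0.494); a difference that misses the threshold does not show equal levels. Of the 15 intestinal markers, 12 were lower with brequinar and 0 higher, and 16 of 16 oocyte and germ line markers were higher and 0 lower; their part in the difference was not tested. Without dhod-1 RNAi replicates 3 and 4, 3 effector genes were higher and 32 lower with brequinar, where 38.1% of all genes were called, 16.5% higher and 21.6% lower.

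Doxycycline and teriflunomide, of the same batch, were compared as well: 60 of 80 effector genes were higher with doxycycline and 6 lower, where 74.2% of all genes were called, 36.3% higher and 37.9% lower. The median log2 difference was 1.44 for the effector genes and 0.22 for all genes. sysm-1, dod-24, dod-22 and irg-4 led, at 8.74, 8.35, 8.21 and 7.17 on the log2 scale (edgeR adjusted p between 1.83e-10 and 4.66e-06), and the libraries of the 2 groups did not overlap in any of the 4. Those lower with doxycycline included dod-18 (-1.85) and spp-4 (-1.26), whereas lys-2, which rose with both, did not pass, at -0.22 (edgeR, SE 0.22, adjusted p = 0.379). Of the tissue markers, 16 of 16 oocyte and germ line markers were lower with doxycycline, and 9 of 15 intestinal and 9 of 12 pharyngeal markers were higher; 2 intestinal markers were lower, and the part of these shifts in the difference was not tested. sysm-1 between doxycycline and teriflunomide stayed called at 9.54 without teriflunomide replicate 4.

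Teriflunomide and brequinar share their enzyme but were given at 250 and 500 µM in separate batches, so their values are set side by side. Of the 65 effector genes tested in both batches, brequinar changed 22 and teriflunomide 41, and 14 were called with both, 63.6% of the first set and 34.1% of the second: 7 in the same direction and 7 in opposite directions. Over all 14435 genes tested in both batches, 1247 were called with both, 53.5% of those with brequinar and 21.9% of those with teriflunomide, 250 in the same direction and 997 in opposite directions, so that the same direction was the more frequent among the effector genes; this difference was not tested. dod-22 fell with both, at -3.07 with brequinar and -7.14 with teriflunomide, and so did dod-24 (-2.20 and -3.54), dod-3 (-1.13 and -3.15) and sysm-1 (-0.73 and -8.63). irg-5 rose with brequinar and fell with teriflunomide (2.65 and -3.73), as did cnc-4 (1.09 and -2.03), while lys-1 did the reverse (-0.91 and 0.81). A test of the difference of the 2 effects, each against its own DMSO and added after the data were seen, called 47 of 82 effector genes, 21 higher and 26 lower with teriflunomide, where 45.2% of all genes were called, 24.4% higher and 20.9% lower. It gave -7.91 (edgeR, SE 0.85, adjusted p = 3.38e-08) for sysm-1, -6.38 (edgeR, SE 0.54, adjusted p = 5e-10) for irg-5, -5.21 (edgeR, SE 0.52, adjusted p = 9.27e-09) for irg-4, -3.48 (edgeR, SE 0.31, adjusted p = 8.73e-10) for ilys-5 and 2.35 (edgeR, SE 0.32, adjusted p = 1.36e-06) for lys-2. The same difference taken from BAY2402234 called 46 of 82, 13 higher and 33 lower, where 36.9% of all genes were called, 13.4% higher and 23.5% lower; batch and dose cannot be told apart from compound in either. dod-3 with brequinar missed the threshold at -1.06 to -0.90 without brequinar replicates 3 or 4 or batch 1 DMSO replicates 2 or 3. sysm-1 with brequinar missed the threshold at -0.80 to -0.63 without brequinar replicates 2, 3 or 4 or batch 1 DMSO replicates 1, 3 or 4. sysm-1 with teriflunomide stayed called at -9.41 without teriflunomide replicate 4. sysm-1 in the difference from brequinar stayed called at -8.71 without teriflunomide replicate 4.

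**Figure D5:**
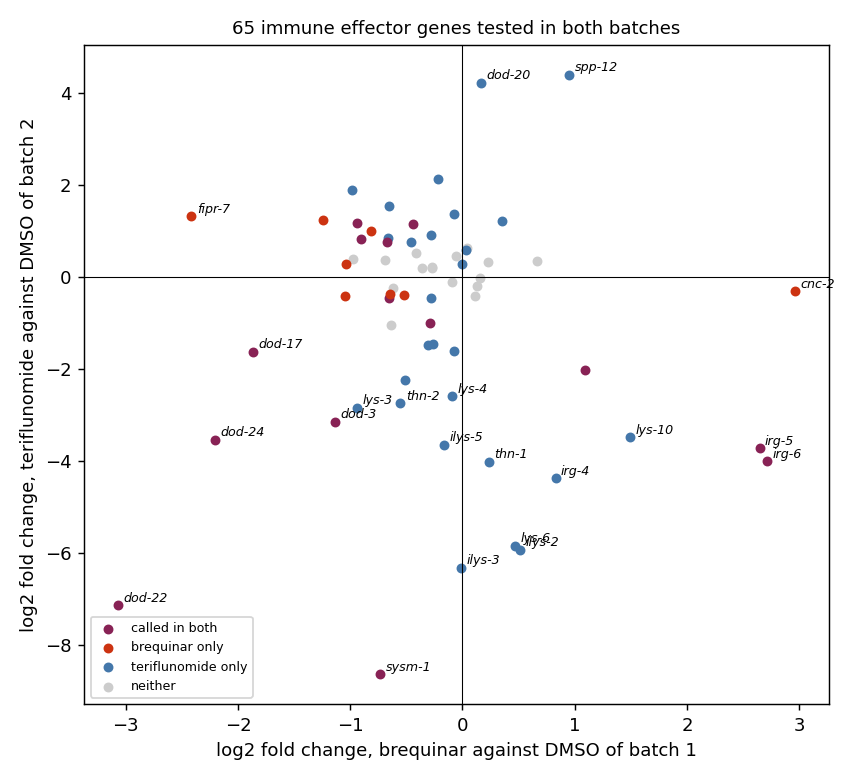
Log2 fold change with brequinar (x axis, against batch 1 DMSO) and with teriflunomide (y axis, against batch 2 DMSO) for the 65 effector genes tested in both batches; doses and batches differ. sysm-1, dod-22 and dod-24 lie low on both axes and irg-5 lies to the right and low.

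The regulators of these effectors, 50 genes of a list chosen with earlier results of these data known, changed least with terbinafine (0 rose, 0 fell) and miglustat (1 rose, 0 fell). 27 rose and 3 fell with BAY2402234, 23 and 9 with dhod-1 RNAi, and 3 and 9 with brequinar, all of 50 tested; in percent of all genes, 23.2 and 23.6 rose and fell with BAY2402234, 31.3 and 30.1 with dhod-1 RNAi and 5.03 and 10.6 with brequinar. With the knockdown but without its replicates 3 and 4, 19 regulators rose and 6 fell, where 19.3% of all genes rose and 13.7% fell. Of 48 tested in batch 2, 29 rose and 14 fell with doxycycline, and 17 and 6 with teriflunomide, beside 44.8% and 40.2% of all genes with doxycycline and 19% and 19.7% with teriflunomide. In the p38 pathway, of 7 genes, 6 rose with dhod-1 RNAi: the adaptor tir-1 by 3.54 on the log2 scale, the kinases nsy-1, sek-1 and pmk-1 by 1.24, 0.79 and 1.24, the phosphatase vhp-1 by 1.54, and nipi-3 by 1.29; 6 rose also without replicates 3 and 4. With teriflunomide, where sysm-1, irg-4 and irg-5 were lowest, tir-1, nsy-1 and pmk-1 fell by 0.73, 0.44 and 0.34 and sek-1, vhp-1 and nipi-3 rose by 0.50, 0.49 and 0.76. With brequinar only tir-1 of the 7 passed, at 1.17. Of the same 7 genes, 5 rose and 1 fell with BAY2402234, and 3 rose and 1 fell with doxycycline. elt-2, the intestinal GATA factor, rose with dhod-1 RNAi (1.88), BAY2402234 (1.02), doxycycline (0.73) and teriflunomide (0.40), and zip-2 rose with doxycycline (1.58) and dhod-1 RNAi (1.01). In the TGF-beta pathway, which controls cnc-2, 1 of 9 genes rose and 3 fell with brequinar, and 4 rose and 2 fell with dhod-1 RNAi. With BAY2402234, where cnc-2 did not pass, 6 of the 9 rose and 0 fell. In batch 2, 7 rose and 2 fell with doxycycline, and 4 rose and 0 fell with teriflunomide. The part of any of these regulators in the changes of the effector genes was not tested. The nlp antimicrobial peptides, epidermal relatives of the caenacins, rose with doxycycline in 7 of 10 tested and fell in 0, beside 44.8% of all genes that rose, led by nlp-26 (3.58) and nlp-25 (3.20), with a summed level of 207 to 231 CPM against 23.7 to 79.7 CPM in DMSO.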

How the data were processed

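Per the submitters' processing notes, BGISEQ-500 reads went through FastQC and were mapped by STAR 2.7.3a on build WBcel235; the notes also name DESeq2 1.40.2 without its role, and the counting tool, strandedness and annotation release are not given in the sources used here. The authors deposited raw counts per gene, which were used as they stand. Symbols were found for 25676 identifiers in a table of gene names, and coordinates came from the Ensembl annotation of WBcel235.

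All groups of a batch entered 1 fit by edgeR 4.0.16 under R 4.3.3 (filterByExpr with a minimum count of 10, TMM scaling, robust quasi-likelihood F test), with Benjamini-Hochberg adjustment over all genes tested and a threshold of 0.05. Standard errors were back-calculated from the F statistic. CPM used TMM effective library sizes of each batch, so that levels of the 2 batches were scaled separately, and RPKM divided them by exon length. Differences of effects came from 1 fit over both batches. For key genes with at most 10 counts in a group, the ratio of counts carries an exact 95% interval. The fit was tested on simulated counts. Alternatives were DESeq2 1.42.0, its size factors, other filters, a replicate term, only the groups compared, and each library left out.

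Genes named in a comparison with DMSO were up to 8 rises and 8 falls, and in a direct contrast up to 4 each way, that were called, reached a mean of 5 CPM and had all 4 libraries of a group apart, with a panel of 30 effector genes; a member outside this rule is named only where the text says so or where it passed only without a library. The members, lists and tests were chosen with earlier results of these data known. The deviations of same-numbered brequinar and dhod-1 RNAi replicates had positive correlations (0.129, 0.488, 0.315 and 0.552). Only brequinar replicate 4 matched its own number best, as replicates 1, 2 and 3 correlated most with dhod-1 RNAi replicates 2, 1 and 4. With the replicate number as a block the contrast still had 41 calls. Pairs of libraries within a group all differed beyond sampling noise (lowest chi-square per degree of freedom 3.73). Promoter and protein sequences were not used here.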

Additional observations from a re-analysis of the deposited data

Results flagged for a closer look

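In 336 sets of 4 libraries, made of 55 named genes and the summed level in each of the 9 groups where the mean reached 5 CPM, 1 library lay far from the other 3 in 18; chance alone gives about 1 in 20. None of these was traced further, and the values are in CPM. In the batch 2 DMSO group, dod-23 was low in replicate 1, at 121 against 268 to 274 in the other 3. fipr-2 was high in replicate 1, at 14.7 against 4.32 to 5.35 in the other 3. lys-4 was low in replicate 1, at 63.9 against 144 to 159 in the other 3. In the terbinafine group, irg-8 was low in replicate 4, at 90.2 against 121 to 123 in the other 3. thn-1 was high in replicate 1, at 8.82 against 3.63 to 4.42 in the other 3. In the miglustat group, dod-23 was high in replicate 3, at 129 against 84.3 to 87.2 in the other 3. spp-4 was high in replicate 3, at 10.3 against 6.35 to 6.95 in the other 3. thn-2 was high in replicate 2, at 99.3 against 49.8 to 53.3 in the other 3. In the BAY2402234 group, dod-19 was high in replicate 1, at 174 against 80.1 to 90.5 in the other 3. irg-5 was high in replicate 4, at 184 against 86.2 to 102 in the other 3. In the brequinar group, dod-24 was high in replicate 1, at 32.8 against 13.2 to 14.9 in the other 3. dod-3 was high in replicate 2, at 19.2 against 10.3 to 11.2 in the other 3. ilys-5 was low in replicate 2, at 223 against 289 to 299 in the other 3. In the dhod-1 RNAi group, irg-3 was high in replicate 4, at 15.2 against 10.2 to 10.9 in the other 3. spp-2 was high in replicate 4, at 29.6 against 22.6 to 23.7 in the other 3. In the doxycycline group, fipr-10 was high in replicate 3, at 17.5 against 14.2 to 14.7 in the other 3. lys-1 was low in replicate 1, at 892 against 1088 to 1122 in the other 3. In the teriflunomide group, dod-6 was low in replicate 1, at 24 against 30.6 to 31.4 in the other 3.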

How the results depend on the processing

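The number of effector genes called kept within 1.5 times of its value under the other scaling, filters, tools and samples, apart from the following. Leaving out 1 library took the number beyond that for brequinar, from 22 to as few as 11. It did so too for terbinafine, from 4 to as few as 1, and miglustat, from 2 to as few as 1. The shares of all genes in those fits are not set beside these counts. For terbinafine it was 4, 2 with no filter on low counts and 7 by DESeq2. For miglustat it was 2, 1 with no filter, 4 by DESeq2 and 0 by edgeR when only the 2 groups were fitted, where 9 effector genes had an unadjusted p below 0.05. The share of all genes at that unadjusted threshold is not set beside this count. For dhod-1 RNAi it was 47, and 27 without replicates 3 and 4, a choice made after seeing the data; 26 calls remained and 21 were lost. With 1 library left out at a time, the counts ran from 1 to 3 (terbinafine), 1 to 3 (miglustat), 32 to 40 (BAY2402234), 11 to 22 (brequinar), 42 to 49 (dhod-1 RNAi), 56 to 63 (doxycycline), 42 to 61 (teriflunomide), 42 to 49 (BAY2402234 against brequinar), 40 to 44 (brequinar against dhod-1 RNAi), 56 to 66 (doxycycline against teriflunomide), 42 to 50 (teriflunomide minus brequinar), 42 to 53 (teriflunomide minus BAY2402234). Of 6234 values of single named genes under alternatives, 5963 kept their side of the threshold, 193 lost it, 78 gained it and 0 reversed; the cause of each shift was not tested. DESeq2's size factors moved the median of all genes by -0.12 with doxycycline and by 0.11 in teriflunomide minus BAY2402234, on the log2 scale.

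The labels give replicates of different groups only a shared number. Beside brequinar and dhod-1 RNAi, same-numbered BAY2402234 and batch 1 DMSO replicates also had positive correlations (0.657, 0.393, 0.0909 and 0.2). So did BAY2402234 and brequinar replicates (0.584, 0.22, 0.00392 and 0.428). Each other comparison within a batch included a negative correlation. With the replicate block the counts were 3 (terbinafine), 2 (miglustat), 41 (BAY2402234), 25 (brequinar), 47 (dhod-1 RNAi), 58 (doxycycline), 42 (teriflunomide), 47 (BAY2402234 against brequinar), 60 (doxycycline against teriflunomide), 48 (teriflunomide minus brequinar), 45 (teriflunomide minus BAY2402234). Genes with few counts, 34 of the 115 in both batches, could not be tested at this depth.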
